A study of Mus musculus with 6 samples.

Results

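The genes described here encode the proteins that make microRNAs (miRNAs): Drosha, Dgcr8, Xpo5, Dicer1, Tarbp2 and Prkra. They were found by name, as every probe on the array whose gene name was one of these 6. The search returned 7 probes, among 55627 probes and 34755 genes in all; Drosha had 2 probes and each of the others had 1. The arrays measured RNA of mouse bone marrow-derived macrophages from LysM-Cre/Dicerwt/wt/Apoe-/- mice (WT) and LysM-Cre/Dicerflox/flox/Apoe-/- mice (KO), labelled as male and 6 to 8 weeks old. Controls and knockouts therefore shared the Cre allele, which the lysozyme M promoter drives in myeloid cells, and the loss of Apoe. Marrow was grown for 7 days in medium with 10% L929-conditioned medium. For each genotype, 1 array held RNA from the lysate before immunoprecipitation (input), 1 held RNA recovered on beads with an antibody to AGO2 (AGO2-RIP, for RNA immunoprecipitation) and 1 held RNA recovered on beads with control IgG (IgG-RIP), after 7 hours on the beads.

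miRNAs begin as hairpins within longer transcripts. In the nucleus the RNase Drosha, held to the hairpin by the double-stranded RNA-binding protein Dgcr8, cuts the hairpin free. Xpo5 (exportin-5) carries it to the cytoplasm, where the RNase Dicer removes the loop, assisted by either of the double-stranded RNA-binding proteins Tarbp2 (TRBP) and Prkra (PACT). A strand of the product is loaded into an Argonaute protein such as AGO2, and the loaded protein binds messenger RNAs that pair with the miRNA. Macrophages use this route for miRNAs that restrain or sustain inflammatory genes. The arrays measured the messenger RNAs of the 6 genes, not their proteins and not mature miRNAs.

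The hairpin of let-7a-1 is shown because it is a substrate of these enzymes, with both mature arms in capitals, as RefSeq gives it at chr13:48538179-48538272 on the minus strand (GRCm38.p6).
pre-let-7a-1: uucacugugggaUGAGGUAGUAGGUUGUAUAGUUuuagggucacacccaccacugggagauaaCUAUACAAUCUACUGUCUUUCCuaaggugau
The next pair of sequences are the 60-base probes that set the upstream Drosha value and the only Xpo5 value, and each has 1 reading frame without a stop codon.
Drosha probe at transcript position 4291: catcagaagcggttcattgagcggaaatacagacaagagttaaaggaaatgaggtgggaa
Xpo5 probe at transcript position 3458: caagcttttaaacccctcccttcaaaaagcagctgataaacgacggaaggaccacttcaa
On mm9, the build of the array annotation, the Drosha probes lie on the plus strand at chr15:12864767-12864826 (transcript position 4291) and chr15:12864964-12865023 (position 4488), and the Dgcr8 probe lies on the minus strand at chr16:18254226-18254285. The Xpo5 probe lies on the plus strand at chr17:46378755-46378814 and the Dicer1 probe on the minus strand at chr12:105926064-105926123. The Tarbp2 probe lies on the plus strand at chr15:102353974-102354033 and the Prkra probe on the minus strand at chr2:76468199-76468258. Placement in exons or untranslated regions was not analysed here. The labelling protocol cut the cDNA with Alu I, whose site is AGCT, and Rsa I, whose site is GTAC, both the same on either strand. The Dicer1 and Xpo5 probes each hold AGCT, as did 24.8% of all probes, and the Prkra probe holds GTAC, as did 12.9%. The Tarbp2 probe and the Drosha probe at position 4488 hold AATAAA on the transcript strand, as did 10.1% of all probes.

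Every level below is the log2 of the processed signal minus the 75th percentile of that array, so 0 is the 75th percentile, and levels are compared between arrays for the same probe only. The scanner error given with a value is the error that the scanning software assigned to the spot, carried through the subtraction; it covers the reading of an array and not the preparation of cells, beads or cDNA. With 1 array per group no difference between single arrays has a replicate check or a p-value, and a difference of 2-fold (1 on the log2 scale) is used as a size, not as a test. The same mass of cDNA, 500 ng, was labelled for each array, so all values are relative abundances. Where a range over 5 scalings is given, they are this one, the percentile taken over spots bright on all arrays, centring on the median, quantile normalization, and normexp background correction. Across the arrays 37.6% to 46.3% of 59305 spots were well above background and 0 were saturated. Of 10 macrophage markers 9 or 10 were well above background on each array, with Lyz2 the exception on the WT input and WT AGO2-RIP arrays. Of markers of other cells, the input arrays had 2 of 8 neutrophil, 1 of 5 erythroid, 1 of 5 dendritic and 0 of 4 mast cell markers well above background, and 0 or 1 of the B cell, T cell and stromal lists. The dendritic one was Siglech, at 6.01 and 5.85, while Flt3, Zbtb46, Cd209a and Xcr1 were dim there. Transcripts of the sex chromosomes went against the label for sex. Xist was well above background on all 3 WT arrays, at 0.14 to 5.70, and on none of the KO arrays, and Ddx3y and Eif2s3y were well above background on the KO arrays only. Sex therefore goes with genotype here, as does the row of the slide on which the arrays lay, and neither can be told apart from the loss of Dicer. The column of the slide goes with the RNA fraction, being 2 for input, 3 for IgG-RIP and 4 for AGO2-RIP. Column and fraction cannot be told apart either. Which exons of Dicer1 were floxed is not in the labels, so its probe is no check of the deletion. The probe of Apoe, the gene all mice were labelled as lacking, was well above background on all 6 arrays, at -0.83 to 1.20; which part of Apoe was deleted is not in the labels either.

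**Figure D1:**
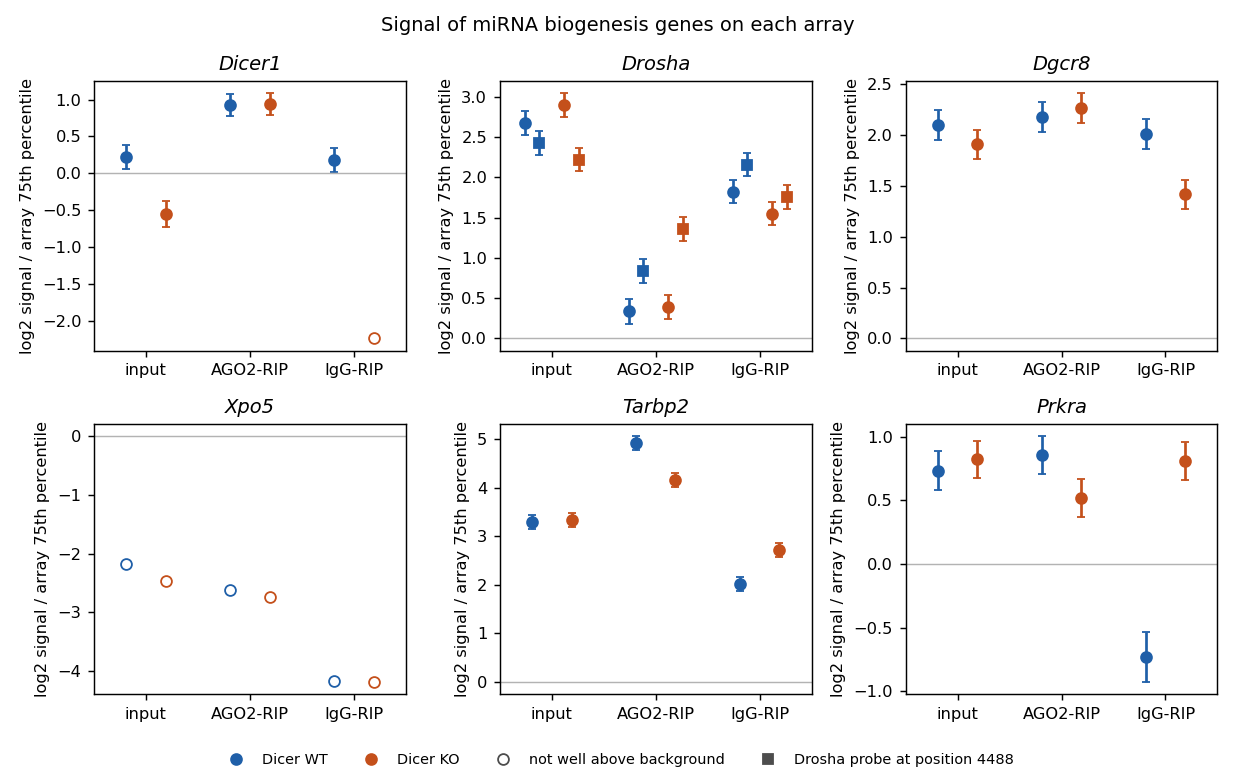
Level of each gene on each array, as the log2 signal over the array's 75th percentile (y axis), by RNA fraction (x axis) and genotype (colour). Filled points were well above background with the scanner error as a bar, open points were not, and squares are the Drosha probe at position 4488. Xpo5 is open on all 6 arrays and Dicer1 only on the KO IgG-RIP array; Tarbp2 is highest on both AGO2-RIP arrays and Drosha lowest there.

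Dicer1, which encodes the RNase targeted in the KO cells, was well above background on every array except the KO IgG-RIP array. Its level was 0.22 on the WT input array, 0.93 on the WT AGO2-RIP array and 0.18 on the WT IgG-RIP array. On the KO arrays it was -0.55 in the input, 0.94 in the AGO2-RIP and not well above background in the IgG-RIP. In raw intensity these were 89.9, 210 and 86.9 for WT and 63.4, 204 and 16.1 for KO, so its signal on the AGO2-RIP arrays was the brightest of each genotype.

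In the input RNA, Dicer1 was 1.71-fold lower in KO than in WT, a log2 difference of -0.77 with a scanner error of 0.24, or -0.42 with normexp. The difference is less than 2-fold; 4.24% of the genes measured on both input arrays were lower still, and the median gene stood at -0.077. In these bulk samples, fewer cells with the transcript and less transcript per cell cannot be told apart. The other members differed less between the inputs. The Drosha probes went opposite ways, at -0.20 (position 4488) and 0.22 (position 4291), each with a scanner error of 0.20 to 0.21. Dgcr8 differed by -0.19, Tarbp2 by 0.031 and Prkra by 0.087, all within their scanner errors of 0.20 to 0.21. All measured members but Dicer1 were thus within 1.17-fold between the genotypes.

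**Figure D2:**
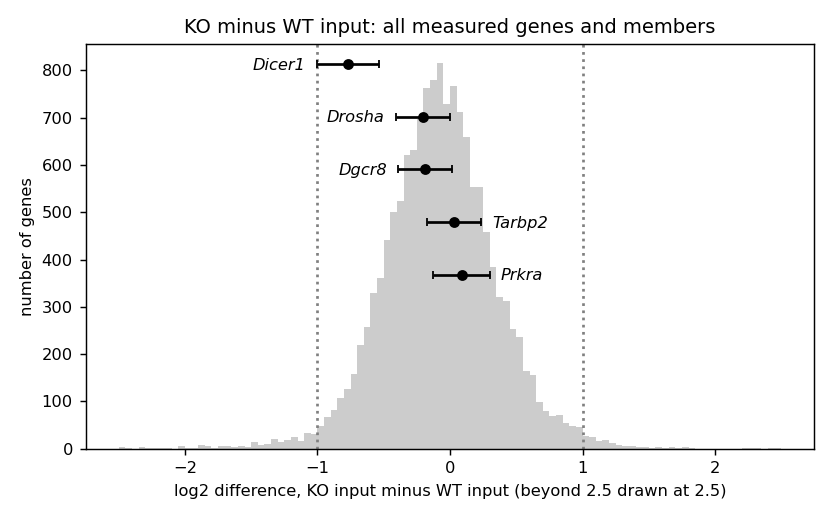
Histogram of the log2 difference KO input minus WT input over all genes measured on both arrays (x axis, values beyond 2.5 drawn at 2.5; y axis, number of genes), with each member as a point and its scanner error as a bar at an arbitrary height. Dotted lines mark 2-fold. Dicer1, at -0.77, is left of the other members, and all points are inside the lines.

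On the AGO2-RIP arrays Dicer1 did not differ beyond its scanner error: KO minus WT was 0.0083, with an error of 0.21. Against input it was 1.64-fold higher in the WT AGO2-RIP (0.71, scanner error 0.22) and 2.81-fold higher in the KO AGO2-RIP (1.49, error 0.23). Over 5 scalings these values ran from 0.43 to 1.07 and from 0.90 to 2.04. The difference between these ratios, WT minus KO, was -0.78, nearly the size of the input difference, since the AGO2-RIP levels matched. Against IgG-RIP, Dicer1 was 1.69-fold higher in WT (0.75, error 0.22). In KO the spot of the IgG-RIP was not well above background, so only a bound holds: Dicer1 was at least 8.48-fold higher in the AGO2-RIP of KO than in its IgG-RIP. That bound, from the bright array's level against the lowest signal called well above background on the dim one, was 2.60-fold with normexp and 8.34-fold to 9.95-fold under 3 other scalings. The bound carries no scanner error, which was 0.40 for the dim spot, so it is approximate. By the same bound Dicer1 was at least 5.00-fold lower in the KO IgG-RIP than in the WT IgG-RIP, and at least 3.02-fold lower than in the KO input; with normexp these were 1.79-fold and 1.39-fold. The KO IgG-RIP array as a whole was not dim, with 42.2% of its spots well above background against 42.3% on the WT IgG-RIP array.

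Drosha and Dgcr8 form the complex that acts first. At position 4488, the probe with the higher mean level of the pair, Drosha was at 2.43 in the WT input, 0.84 in the WT AGO2-RIP and 2.16 in the WT IgG-RIP. The KO arrays gave 2.22 in the input, 1.36 in the AGO2-RIP and 1.76 in the IgG-RIP. The probe at position 4291 had input, AGO2-RIP and IgG-RIP levels of 2.68, 0.34 and 1.82 in WT and 2.90, 0.39 and 1.55 in KO. Both probes were lowest on the AGO2-RIP array of each genotype. The share of all genes with such an order was not counted.

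Against input, Drosha in the WT AGO2-RIP was lower by 1.58 on the log2 scale (3.0-fold) at position 4488 and 5.07-fold lower at position 4291. In KO it was 1.82-fold lower at position 4488 and 5.70-fold lower at position 4291. Drosha was thus lower in AGO2-RIP than in input by both probes and in both genotypes under all 5 scalings tried, with the size set by the probe. Against IgG-RIP the WT values were -1.32 (position 4488) and -1.49 (position 4291), and the KO values were -0.40 and -1.16, with scanner errors of 0.21. Between the genotypes, WT minus KO of this contrast was -0.92 at position 4488 and -0.33 at position 4291, with scanner errors of 0.29 and 0.30. The Drosha probes differed by 1.65 in AGO2-RIP minus input of KO, where probes of the same gene differed by a median of 0.61 over 3708 genes with 2 or more measured probes, and 13.8% of those genes differed by more. In AGO2-RIP minus IgG-RIP of WT they differed by 0.17, below the median of 0.62, and in KO by 0.77 against a median of 0.53. Between the inputs they differed by 0.43 against a median of 0.24.

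Dgcr8 was the steadiest member, with a range of 0.85 over all 6 arrays. Its level was 2.10 in the WT input, 2.18 in the WT AGO2-RIP and 2.01 in the WT IgG-RIP. In KO it was 1.91 in the input, 2.27 in the AGO2-RIP and 1.42 in the IgG-RIP. The KO IgG-RIP array was the low one, 1.51-fold below the WT IgG-RIP. AGO2-RIP minus IgG-RIP was 0.85 in KO, with a scanner error of 0.21, and 0.17 in WT, with the same error; the WT value ran from -0.24 to 0.47 over the scalings and so has no settled sign. AGO2-RIP minus input was 0.081 in WT and 0.36 in KO, and both turned negative when arrays were centred on their medians (-0.20 and -0.14). The labelling does not keep the strand, and in RefSeq the protein-coding gene Trmt2a, which encodes a tRNA methyltransferase, overlaps Dgcr8. Trmt2a gave 0.17 in WT and 1.41 in KO for AGO2-RIP minus IgG-RIP, and was lower in KO than in WT IgG-RIP by 1.60, where Dgcr8 was lower by 0.59. Between the AGO2-RIP arrays, KO minus WT was -0.36 for Trmt2a and 0.088 for Dgcr8. Its part in the Dgcr8 values was not tested. The hairpin of a miRNA, miR-1306, also lies within the bounds of Dgcr8.

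Xpo5, the export carrier, could not be measured. Its spot was not well above background on any of the 6 arrays, with raw intensities of 17.1, 18 and 4.28 on the WT input, AGO2-RIP and IgG-RIP arrays. On the KO arrays they were 16.8, 15.9 and 4.20. The median of the negative controls was 3.89 to 4.51, so both IgG-RIP spots lay at the level of the negative controls and no fold is given. A single probe below the limit does not show that the transcript was missing from the cells.

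Tarbp2 and Prkra encode the partners of Dicer. Tarbp2 was at 3.30 in the WT input, 4.91 in the WT AGO2-RIP and 2.02 in the WT IgG-RIP. In KO it was at 3.33 in the input, 4.16 in the AGO2-RIP and 2.72 in the IgG-RIP. The order was the same in both genotypes, AGO2-RIP above input above IgG-RIP. How many of all genes had this order was not counted.

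In WT cells the AGO2-RIP held 7.41-fold more Tarbp2 than the IgG-RIP, a log2 difference of 2.89 with a scanner error of 0.20, and 3.04% of measured genes had a larger value. In KO it was 2.71-fold higher (1.44, error 0.20), with 5.45% of measured genes above it. Over the 5 scalings the WT value ran from 2.48 to 3.19 and the KO value from 1.42 to 1.52. The genotypes thus differed by 1.45 in this contrast, with a scanner error of 0.29, and this came from both precipitates: KO was 1.69-fold lower than WT in AGO2-RIP and 1.62-fold higher in IgG-RIP. Against input, Tarbp2 in AGO2-RIP was 3.06-fold higher in WT and 1.77-fold higher in KO. In IgG-RIP it was 2.42-fold lower than in input in WT and 1.53-fold lower in KO. Tarbp2 shares part of its locus with Map3k12 in RefSeq, and the files do not settle which transcript gave the signal.

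Prkra had a single low array among 6. Its level was 0.73 in the WT input, 0.85 in the WT AGO2-RIP and -0.73 in the WT IgG-RIP. In KO it was 0.82 in the input, 0.52 in the AGO2-RIP and 0.81 in the IgG-RIP. All arrays but the WT IgG-RIP lay within 0.34 of each other, and the WT IgG-RIP spot, with a raw intensity of 46.4, was still well above background.

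The WT AGO2-RIP held 3.0-fold more Prkra than the WT IgG-RIP, a log2 difference of 1.58 with a scanner error of 0.24 and a range of 0.83 to 1.88 over the scalings. In KO the difference was -0.30, with an error of 0.21. WT minus KO of this contrast was 1.88, with a scanner error of 0.32, and between 0.96 and 2.20 over the 5 scalings. The IgG-RIP arrays carried most of it: KO was 2.91-fold above WT in IgG-RIP, whereas in AGO2-RIP it was 1.26-fold below WT. Against input, AGO2-RIP differed by 0.12 in WT and by -0.31 in KO, with scanner errors of 0.21, and the sign of each changed with the scaling. Prkra was therefore high over IgG-RIP in WT without being high over input.

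**Figure D3:**
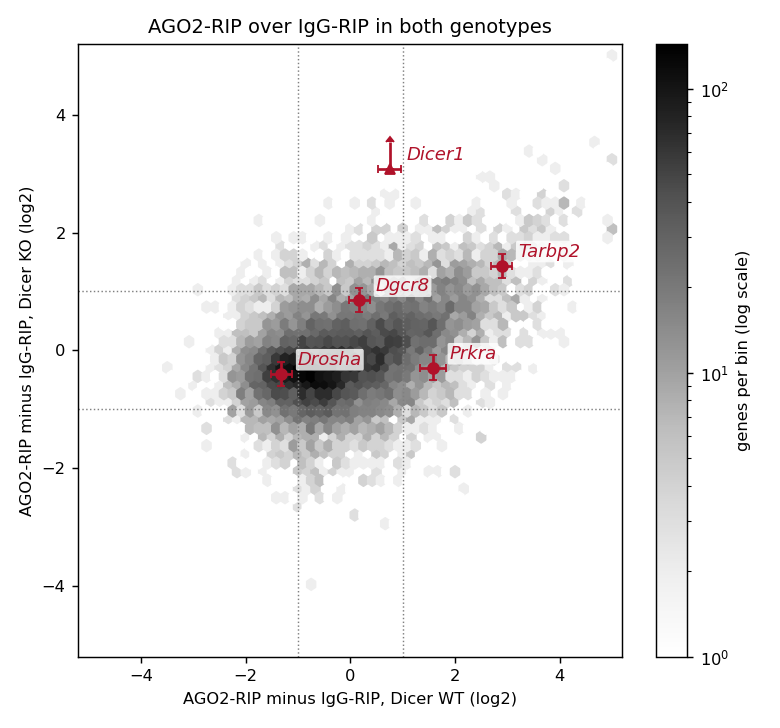
AGO2-RIP minus IgG-RIP on the log2 scale in WT (x axis) against KO (y axis). Grey bins count the genes measured on all 4 arrays, on a log scale; red points are the members with scanner errors, and the triangle with an arrow is the Dicer1 bound. Dotted lines mark 2-fold. Tarbp2 lies beyond 2-fold on both axes (2.89 and 1.44) and Prkra on the WT axis only (1.58 and -0.30).

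Of the 6 genes, 5 had a value in each comparison of single arrays, and they are counted here by the probe with the highest mean level, beside the share of all genes past 2-fold in each direction. In the inputs, 0 of 5 were past 2-fold between KO and WT, against 1.35% of 16768 genes higher in KO and 2.94% lower. In AGO2-RIP minus IgG-RIP of WT, 2 of 5 were 2-fold higher (Tarbp2 and Prkra) and 1 lower (Drosha), where 21.0% of 19159 genes were higher and 24.0% lower. The same contrast of KO had 2 of 5 higher (Dicer1, by its bound, and Tarbp2) and 0 lower, against 12.6% of genes higher and 11.1% lower. In AGO2-RIP minus input of WT, 1 of 5 was higher (Tarbp2) and 1 lower (Drosha), against 15.6% and 24.0% of genes. In KO 1 of 5 was higher (Dicer1) and 0 lower, against 17.9% and 23.5%. So many genes passed 2-fold in these contrasts that the members' counts do not set them apart. The contrasts of a genotype share arrays with each other, so they are not separate evidence.

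In IgG-RIP minus input of WT, 0 of 5 were 2-fold higher and 2 lower (Tarbp2 and Prkra), against 22.8% and 32.4% of genes. In KO 0 were higher and 1 lower (Dicer1, by its bound), against 21.6% and 26.7%. Between the AGO2-RIP arrays of the genotypes 0 of 5 were past 2-fold, against 8.77% of genes higher in KO and 11.2% lower. Between the IgG-RIP arrays 1 of 5 was higher in KO (Prkra) and 1 lower (Dicer1), against 12.8% and 12.0%. When the AGO2-RIP over IgG-RIP ratio of KO was taken from that of WT, 2 of the 4 genes measured on all 4 arrays were 2-fold higher in WT (Tarbp2 and Prkra) and 0 lower, against 20.2% and 16.5% of genes. For the ratio over input, 0 of 5 were past 2-fold, against 11.6% and 6.98%.

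The scaling moves all genes together, and with them the split into higher and lower. Among genes past 2-fold, the higher share in AGO2-RIP minus IgG-RIP was 46.6% in WT and 53.2% in KO, and 28.4% to 67.5% and 51.2% to 66.4% under 4 other scalings. In AGO2-RIP minus input it was 39.3% in WT (26.5% to 58.1%) and 43.2% in KO (21.2% to 72.3%). In IgG-RIP minus input it was 41.3% in WT (23.3% to 69.9%) and 44.8% in KO (25.0% to 72.9%). In KO minus WT it was 31.5% in input (31.2% to 45.4%) and 43.9% in AGO2-RIP (26.8% to 72.0%). For the WT minus KO ratios it was 55.1% over IgG-RIP (31.8% to 74.5%) and 62.4% over input (41.1% to 80.7%). The median gene in AGO2-RIP minus IgG-RIP of WT stood at -0.24, and at -0.65 or 0.06 when arrays were scaled on the spots bright on all arrays or on their medians. In IgG-RIP minus input of WT, Drosha (position 4488), Dgcr8 and Dicer1 took either sign with the scaling.

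**Figure D4:**
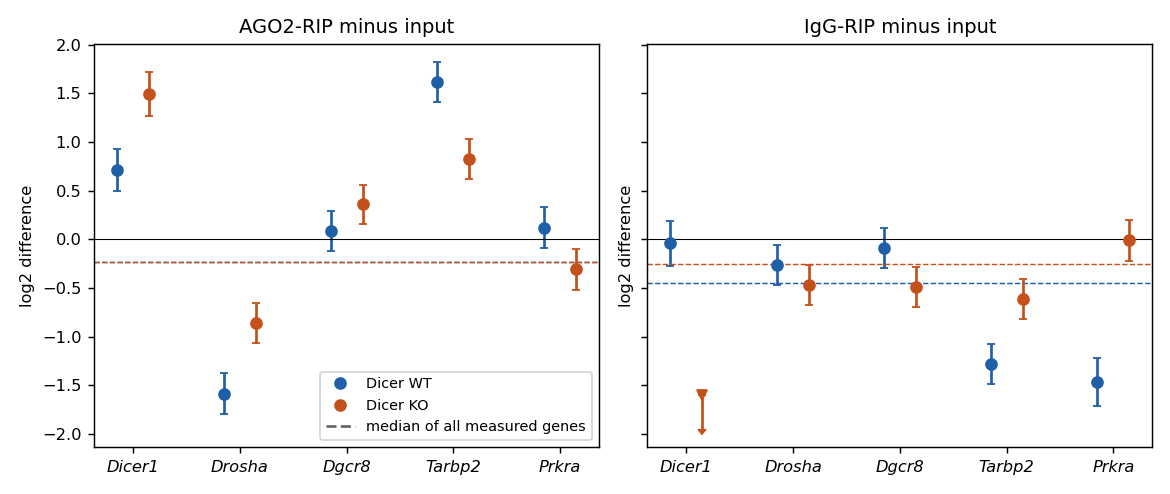
Log2 difference of AGO2-RIP minus input (left) and IgG-RIP minus input (right) for the members (x axis) in WT and KO, with scanner errors as bars. The dashed lines are the medians of all measured genes, and the arrow is the Dicer1 bound in KO IgG-RIP. In the left panel Tarbp2, Dicer1 and Dgcr8 are above that median in both genotypes and Drosha is below it.

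With the genotypes taken as 2 samples per fraction, a linear model with fraction and genotype terms (limma) could be tested; Dicer1 entered with its dim KO IgG-RIP signal at the measured value. It asks only what the genotypes share, and whatever differs between them counts as error. In AGO2-RIP minus IgG-RIP, Tarbp2 had an estimate of 2.16 (95% confidence interval 0.94 to 3.39; limma adjusted p = 0.128) and Dicer1 one of 1.97 (0.32 to 3.61; limma adjusted p = 0.219). Both were higher in AGO2-RIP in 2 of 2 genotypes. In AGO2-RIP minus input, Drosha had an estimate of -1.22 (interval -2.30 to -0.15; limma adjusted p = 0.115) and Tarbp2 one of 1.22 (interval -0.0070 to 2.44; limma adjusted p = 0.151). Drosha was lower, and Tarbp2 higher, in 2 of 2 genotypes. Of 5 members tested, 0 passed the adjusted p of 0.05 in any of the 3 contrasts. Over all 18888 genes, limma called 0 (0%) in AGO2-RIP minus IgG-RIP, where 3554 had an unadjusted p under 0.05, and 1934 (10.2%) in AGO2-RIP minus input. It called 5698 (30.2%) in IgG-RIP minus input. Drosha passed in AGO2-RIP minus input only with the median of its probes in place of the probe with the higher mean (-1.82; limma adjusted p = 0.0483).

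The 5 measurable members were compared by their patterns over the arrays. As the root mean square difference of mean-centred levels over 6 arrays, Dgcr8 and Prkra were nearest, at 0.66, and Drosha and Tarbp2 farthest, at 1.40. Dicer1 entered with its dim KO IgG-RIP signal at the measured value, so its distances, and the order of the genes nearest to it, rest in part on a level that is only a bound. Among 9950 named genes well above background on at least 5 arrays, those nearest to Dicer1 were Ppan at 0.23, Mtfr1 at 0.26, Sgo1 at 0.27, Zfp280c at 0.30 and Id1 at 0.34. The median candidate was at 1.27 from Dicer1, 0.72 from Dgcr8, 0.80 from Prkra, 0.82 from Drosha and 1.12 from Tarbp2. Dgcr8 and Prkra, at 0.66, were thus little closer to each other than the median candidate was to either. The nearest to Tarbp2 were Trp53inp2 at 0.069 and Map11 at 0.086, and to Prkra Ndel1 at 0.083 and Pwwp3a at 0.084. The nearest to Drosha were Ccdc166 at 0.10 and 4932431P20Rik at 0.11, and to Dgcr8 Rnf180 at 0.091 and Cul5 at 0.10.

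The other genes of the route were read through lists. Of the 7 Argonaute and GW182 genes, which encode the effector proteins that miRNAs guide, 2 were 2-fold higher in KO than in WT input. These were Tnrc6a, and Ago3 by a bound, and 0 were lower. The shares of all genes were 1.35% higher and 2.94% lower, so a count of 0 in the lists below is near them. The median of the Argonaute and GW182 genes, 0.78 over 5 measured, stands beside -0.077 for all genes. The gap between these medians was 0.86, and it was 0.69 with quantile normalization and 0.45 with normexp. Scalings by a percentile or a median shift all genes of an array alike, so they cannot change this gap. Ago2, which encodes the precipitated protein, differed by 0.81. Against IgG-RIP, 3 of 7 were higher in AGO2-RIP and 1 (Ago3) lower in each genotype, where 21.0% of all genes were higher and 24.0% lower in WT and 12.6% and 11.1% in KO. Tnrc6a, which encodes the GW182 scaffold that binds Argonaute, had the highest measured value of the list, 2.99 in WT and 1.58 in KO. Over input it stood at 4.11 in WT and 2.11 in KO, and limma called it (3.11; adjusted p = 0.0411). IgG-RIP minus input was 1.12 in WT and 0.52 in KO for the same gene. This call and the other limma calls named below for AGO2-RIP minus input were lost with quantile normalization and without any input or AGO2-RIP array, where limma called 0 genes.

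Of the 16 genes listed as partners of Drosha and of primary miRNAs, 0 were past 2-fold between the inputs. The shares of all genes were 1.35% higher and 2.94% lower. Adar, which encodes an RNA-editing enzyme, was lowest at -0.53. The WT contrast with IgG-RIP had 1 of 16 higher (Ilf2, 2.15) and 2 lower (Ctdsp1, -1.54, and Ddx17, -1.03), against 21.0% and 24.0% of all genes. In KO 1 was higher and 2 lower, Adar at -1.05 among them, against 12.6% and 11.1%, and Ilf2 was at -0.21. In that contrast their medians were -0.37 in WT and -0.22 in KO, beside -0.24 and -0.19 for all genes. For AGO2-RIP minus input limma called 1 of 16, Ncbp2 of the nuclear cap-binding complex, lower (-1.90; adjusted p = 0.0453), and 0 higher, against 10.2% of all genes called. Ncbp2 was lower on the control beads too: limma called it in IgG-RIP minus input (-1.74; adjusted p = 0.0303), and AGO2-RIP minus IgG-RIP was 0.022 in WT and -0.34 in KO. The list's medians in AGO2-RIP minus input were -0.51 in WT and -0.12 in KO, where all genes stood at -0.24 in both.

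Of the 14 measured export, loading and Dicer partner genes, 0 were past 2-fold between the inputs, against 1.35% of all genes higher and 2.94% lower. Mov10, an RNA helicase that binds Argonaute, had the highest value of this list in AGO2-RIP minus IgG-RIP, 2.62 in WT and 1.52 in KO. Over input it was at 4.65 in WT and 3.37 in KO, and limma called it (4.01; adjusted p = 0.0374). Mov10 was also higher in IgG-RIP than in input, by 2.02 in WT and 1.85 in KO, and limma called that as well (1.94; adjusted p = 0.0370). Other genes of the list, some but not all of its chaperones of loading among them, were lower. In WT AGO2-RIP minus input 7 of 14 were 2-fold lower, among them Fkbp4 at -1.57 and Tsnax at -1.90, against 24.0% of all genes. The chaperone gene Dnajc7 went the other way, at 0.81 in WT and 0.23 in KO. In KO 4 of 14 were lower, against 23.5%, with Fkbp4 at -2.35 and Hsp90ab1 at -1.67, and limma called Fkbp4 over both genotypes (-1.96; adjusted p = 0.0478). In WT AGO2-RIP minus input, the list's median minus that of all genes was -0.66, -0.29 with quantile normalization and -0.49 with normexp. In KO it was -0.50, 0.11 with quantile normalization and -0.41 with normexp. The other scalings shift all genes of an array alike and cannot change these gaps. The control beads gave like counts: in IgG-RIP minus input 7 of 14 were lower in WT and 4 of 14 in KO, against 32.4% and 26.7% of all genes, and limma called Fkbp4 lower there (-1.50; adjusted p = 0.0467). In AGO2-RIP minus IgG-RIP the list's medians were 0.025 in WT and 0.050 in KO, above those of all genes.

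Of the precursor tailing and decay genes, 8 of 11 had a value in the inputs, from -0.65 for Pnpt1 to 0.60 for Xrn1. Past 2-fold were 0 of them, against 1.35% of all genes higher and 2.94% lower. Over IgG-RIP in WT, 2 were higher in AGO2-RIP (Tent2, 2.89, and Eri1, 1.56) and 3 of 8 lower, with Tut7 at -2.03 and Xrn1 at -1.30, against 21.0% and 24.0% of all genes. In KO 1 of 9 was higher (Eri1, 1.07) and 0 lower, against 12.6% and 11.1%, and Tut7, a terminal uridylyltransferase, was at 0.46. Of the 10 host transcripts of miRNAs with a value in that contrast of WT, 2 were higher (Ctdspl, 4.26, and Ctdsp2, 1.13) and 2 lower (Mir99ahg, -2.05, and Mir22hg, -1.14), against the same 21.0% and 24.0%. In KO 3 of 11 were higher and 1 lower, against 12.6% and 11.1%, with Ctdsp2 at 1.76, Huwe1 at 1.52 and Mcm7 at -1.01. In KO minus WT of the AGO2-RIP arrays 3 of 11 hosts were higher, with Mir99ahg at 1.5 and Mir22hg at 1.38, against 8.77% of genes, and 1 was lower (Ctdspl, -2.11). Between the inputs 0 of 7 hosts were past 2-fold, against 1.35% of all genes higher and 2.94% lower. Processing of a host into its miRNA cannot be read from these probes.

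Tarbp2 and Prkra belong to a larger family of double-stranded RNA-binding proteins, of which 8 of 10 other genes on the list had a value. Between the inputs 0 of 8 were past 2-fold, against 1.35% of all genes higher and 2.94% lower. The highest was Ddx58 (RIG-I, a sensor of foreign RNA) at 0.97. In AGO2-RIP minus IgG-RIP of WT 2 of 8 were higher, among them Stau2 at 2.22, and 0 lower, against 21.0% and 24.0% of all genes. In KO 1 was higher (Stau1, 1.47) and 2 lower (Dhx58, -1.75, and Stau2, -1.05), against 12.6% and 11.1%. Stau2, which encodes a protein that moves messenger RNAs, therefore had the same signs as Prkra in these contrasts. So did Dhx58, at 0.90 in WT, and Ilf2 of the list of Drosha partners, at 2.15 in WT and -0.21 in KO. Genes of other lists did too, such as Ddx20, at 2.45 in WT and -0.58 in KO. The signs were therefore not particular to this family, and their share over all genes was not counted. These genes were also higher in KO than in WT IgG-RIP: Stau2 by 2.29, Dhx58 by 2.06, Ilf2 by 1.51, Ddx20 by 3.11 and Prkra by 1.54. Not every gene with these signs was: Ncbp2 was at -0.37 in KO minus WT of IgG-RIP.

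**Figure D5:**
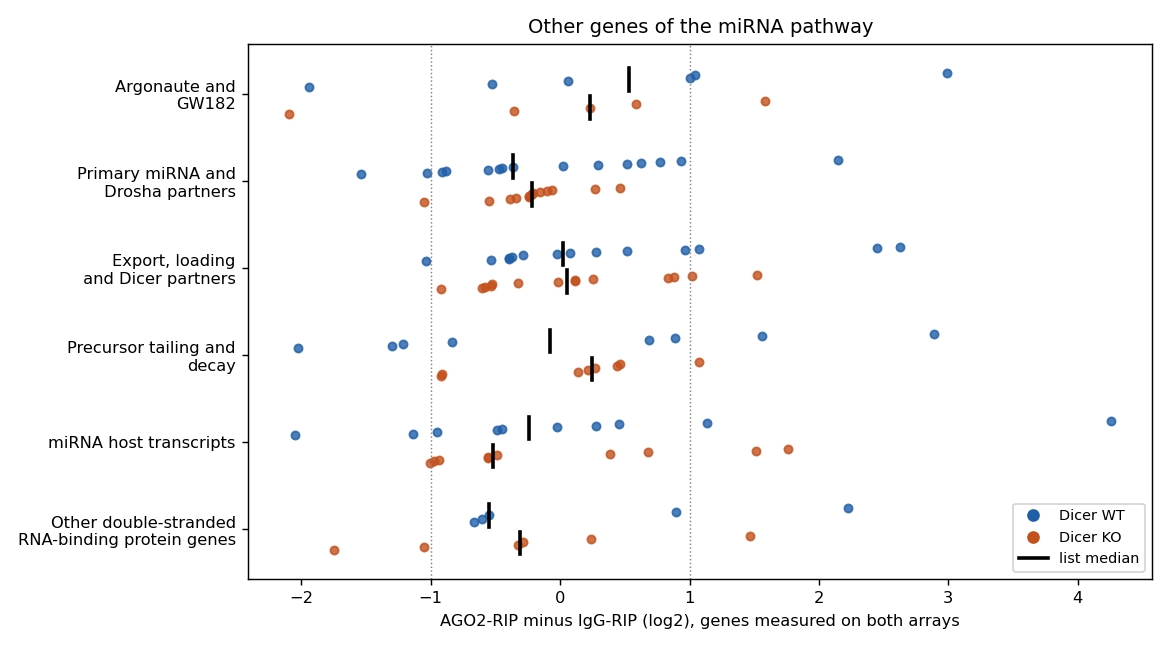
AGO2-RIP minus IgG-RIP on the log2 scale (x axis) for each gene of the 6 lists (y axis) measured on both arrays, WT above KO in each row, with the list median as a black bar and dotted lines at 2-fold. Genes of every list lie on both sides of 0 in both genotypes.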

How the data were processed

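The deposited files are single-colour Agilent scans read with Feature Extraction (version 10.7.3.1 in the submitters' processing notes). Per the file headers, the authors deposited background-subtracted linear intensity, its error and other flags for each spot, and 1 slide held all arrays. RNA was reverse-transcribed and pre-amplified before labelling, per the labels' protocols, which can weight transcripts unequally. The values used are log2 of the processed intensity minus the 75th percentile over 59305 non-control spots of the array. Probes for which a spot was flagged as an outlier (54) were dropped. A gene was read from its probe with the highest mean log2 value, and 27634 probes were named by accession, 3399 by symbol and 320 by synonym through RefSeq (GRCm38.p6), while 24274 kept the array's name. Probes printed 10 times had a spot SD of 0.149 to 0.189 on the log2 scale. A gene dim on 1 array of a pair has a bound only: the bright level against the higher of the lowest signal well above background and its own signal there. limma 3.58.1 (R 4.3.3) was fitted on genes well above background on at least 2 arrays, with Benjamini-Hochberg adjustment over 18888 genes, and tested on simulated data. Nothing in the labels shows which arrays shared a cell preparation. The error in limma is what differs between the genotypes in the contrasts of fractions. The p-values therefore do not measure the spread between cell preparations of the same genotype. The members and lists were chosen with earlier results of these data known. Genes named from a list are its 2 highest and 2 lowest measured members in a comparison of inputs or AGO2-RIP; for Dicer1 the 5 nearest patterns and for each other member 2 are named. Ago3, Trmt2a, Siglech, and the values of Ilf2 and Ddx20 in KO, fall outside this rule. So do the values of Stau2, Dhx58, Ilf2, Ddx20 and Ncbp2 in IgG-RIP. They were chosen after their values were seen. Alternatives were other scalings, normexp background correction, the median of probes, filters on dim spots, a 1.5-fold size, limma without the genotype term and limma without each array.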

Additional observations from a re-analysis of the deposited data

Results flagged for a closer look

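With the main scaling, Prkra was the only member whose AGO2-RIP value lay on opposite sides of 0 in the genotypes. With scaling on bright spots or quantile normalization, Dgcr8 did so too in AGO2-RIP minus IgG-RIP. It was then at -0.24 or -0.11 in WT and 0.83 or 0.93 in KO. The share of all genes with opposite signs was not counted. The values of Prkra with the main scaling follow. AGO2-RIP minus IgG-RIP was 1.58 in WT and -0.30 in KO. AGO2-RIP minus input was 0.12 in WT and -0.31 in KO. The genotypes had the same sign in AGO2-RIP minus input with scaling on bright spots (0.47 and 0.25) and with median centring (-0.16 and -0.81). Each genotype has 1 array per fraction, so these differences between the genotypes were not tested. The WT IgG-RIP array, at -0.73, was the lowest of the 6 for Prkra. KO minus WT was 1.54 between the IgG-RIP arrays and -0.34 between the AGO2-RIP arrays. Over both genotypes the limma estimate of AGO2-RIP minus IgG-RIP for Prkra was 0.64, and it was -0.19 without the WT IgG-RIP array.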

How the results depend on the processing

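The labels give 1 array per group and no replicate numbers, so no fit by replicate number could be made; limma's genotype term pairs the fractions within a genotype, and the counts without it are given here. Counts of members past 2-fold changed as follows, with some smaller changes left out. Dicer1 joined those past 2-fold in AGO2-RIP minus IgG-RIP of WT with median centring (1.05). It also joined them in AGO2-RIP minus input of WT with scaling on bright spots (1.07). In the inputs 1 passed at 1.5-fold. In AGO2-RIP minus IgG-RIP, 1 passed in WT with normexp and 1 in KO among genes well above background on all 6 arrays. In AGO2-RIP minus input of KO, 2 passed with scaling on bright spots, quantile normalization or the median of probes, 0 with normexp or among genes bright on all 6 arrays, and 3 at 1.5-fold. In IgG-RIP minus input of WT, 0 passed with scaling on bright spots and 1 with quantile normalization or normexp; in KO, 2 passed with median centring, no filter or 1.5-fold and 0 with normexp or all 6 arrays bright. In KO minus WT, 1 passed at 1.5-fold in AGO2-RIP, and in IgG-RIP 0 with normexp, 1 with all 6 arrays bright and 4 at 1.5-fold. For WT minus KO over IgG-RIP, 4 passed with scaling on bright spots, quantile normalization or 1.5-fold and 1 with normexp; over input, 1 with median centring and 3 at 1.5-fold. Over all genes, limma called in AGO2-RIP minus IgG-RIP 263 with normexp, 146 without the genotype term and 0 to 526 without an array, with 526 when the KO IgG-RIP array was left out. In AGO2-RIP minus input it called 0 with quantile normalization, 3640 with normexp, 1028 without the filter and 3257 without the genotype term, and 0 to 4657 without an array: 0 without any input or AGO2-RIP array and 4657 without either IgG-RIP array. In IgG-RIP minus input it called 3291 with quantile normalization and 0 to 7296 without an array, 0 without either input array. Directions reversed for some limma estimates of members that had not passed the threshold. Without an array, the Prkra estimate ran from -0.19 to 1.48 in AGO2-RIP minus IgG-RIP (lowest without the WT IgG-RIP), from -0.67 to 0.48 in AGO2-RIP minus input and from -1.57 to 0.095 in IgG-RIP minus input. Dgcr8 ran from -0.0205 to 0.46 in AGO2-RIP minus input, and Dicer1 from -1.88 to 0.15 in IgG-RIP minus input (highest without the KO IgG-RIP). With scaling on bright spots or quantile normalization, Prkra turned to 0.36 or 0.0025 in AGO2-RIP minus input, and in IgG-RIP minus input Dgcr8 turned to 0.38 or 0.11 and Drosha to 0.30 or 0.083. The cause was not tested. Of the values of single members under the alternatives, 438 kept their direction and size or side of the threshold, 97 moved, 12 were counted as reversed and 1 passed the threshold. The 12 do not include every change of sign. Small values often changed sign with the scaling, such as Dicer1 in IgG-RIP minus input of WT, from -0.63 to 0.72. Signal over background limits Xpo5 and the KO IgG-RIP value of Dicer1, and the number of arrays limits every other value.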
